A study of Mus musculus with 158 samples.

Results

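The loci described here are those of 10 imprinted mouse genes, H19, Igf2, Kcnq1ot1, Cdkn1c, Meg3, Dlk1, Snrpn, Peg3, Mest and Plagl1, out of 53843 annotated genes. Each locus was the GENCODE gene body on the mm10 build with 20 kb on both sides, and the spaces between H19 and Igf2 and between Dlk1 and Meg3 were added as 2 further regions, 12 in all. Within these windows, 274 of the 745754 sites of open chromatin formed by merging all adult hotspot sets were found. The rule used gene names and positions and no measured value, but the genes were listed with earlier results of these data known.

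The adult data were DNase I hotspots, stretches of chromatin cut by DNase I above the local background, called at a false discovery rate of 5%. They came from liver, kidney, lung and bone marrow B cells of F1 mice. The dam was always C57BL/6J (B6). The sire of B6xSPRET was SPRET/EiJ, that of B6xPWK was PWK/PhJ, that of B6xCAST was CAST/EiJ, and that of B6xC3H was C3H/HeJ, while B6x129 is given here by its label alone. Wherever 5 values of a tissue are given in a row, they are in the order B6x129, B6xC3H, B6xCAST, B6xPWK, B6xSPRET. The 138 libraries were pooled by the authors into 20 sets, 1 for each tissue and hybrid, so each tissue is represented by its 5 hybrids. The p-values for a tissue rank its difference among exchanges of the tissue labels within hybrids. They do not measure a spread between libraries or animals. 1 hotspot set each of DNase-seq and of CTCF ChIP-seq from B6xCAST mouse embryonic stem cells (mESC) and 17 RNA-seq libraries completed the data. All mice carried a maternal B6 genome and a paternal genome of the other strain, with no cross in the opposite direction, and the hotspots do not separate the alleles. Mice were 8 weeks old. Solid tissues were usually pooled from 4 animals and hold every cell type of the organ, and B cells were what remained of the femoral marrow of females after depletion of CD43 and CD11b.

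Imprinted genes are transcribed from only the maternal or only the paternal chromosome. The choice is carried by control regions whose DNA methylation is set in the egg or the sperm and is kept on that chromosome afterwards, in part through the zinc finger protein ZFP57, which binds methylated TGCCGC. At H19 and Igf2, the control region upstream of H19 is bound by the insulator protein CTCF on the unmethylated maternal chromosome, which keeps the shared enhancers from Igf2, and is methylated on the paternal one. At Kcnq1ot1, Snrpn, Peg3, Mest and Plagl1 the control region is the promoter itself, methylated on the maternal chromosome and open on the paternal one, and the Kcnq1ot1 RNA silences its neighbours, Cdkn1c among them. Dlk1 and Meg3 share a control region between them that is methylated on the paternal chromosome. The methylation of such control regions is kept in all somatic cells.

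The sequences shown first are the stretches of these control regions that were found within hotspots, read from the B6 reference (GRCm38.p6, the mm10 build). H19 is transcribed from the minus strand of chromosome 7, and its control region held 3 matches to GNGGNGGCA, the core of the CTCF sites known from this region, here in capitals on the minus strand. They lay at chr7:142580295-142580333, chr7:142580750-142580788 and chr7:142582020-142582058, between genes.
H19 control region match 1: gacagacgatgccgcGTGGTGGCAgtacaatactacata
H19 control region match 2: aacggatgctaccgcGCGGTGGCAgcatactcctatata
H19 control region match 3: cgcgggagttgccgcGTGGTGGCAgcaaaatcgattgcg

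Peg3, a paternally expressed zinc finger gene, carries repeated binding sites for the factor YY1 behind its promoter. Its promoter site held 12 matches to GCCATNTT, the YY1 core, all on the minus strand, the strand on which Peg3 is annotated. The 4 nearest the start of the gene are shown with the core in capitals, at chr7:6729579-6729606, chr7:6729473-6729500, chr7:6728870-6728897 and chr7:6728729-6728756, all within the transcribed part of Peg3.
Peg3 YY1 core match 1: cccagttggcGCCATCTTggagggtgga
Peg3 YY1 core match 2: cccgcttggcGCCATCTTgaaatgaccg
Peg3 YY1 core match 3: ccatcctggcGCCATCTTtcctggccaa
Peg3 YY1 core match 4: ctaccctgacGCCATCTTtgctggctga

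The third set is the densest stretch of TGCCGC in 4 control regions, on the plus strand, with TGCCGC and its reverse complement GCGGCA in capitals. The windows are chr12:109528286-109528465 between Dlk1 and Meg3, chr7:60004348-60004497 at the Snrpn promoter, chr6:30738098-30738247 at the Mest promoter and chr10:13091054-13091203 at the Plagl1 promoter.
Meg3 control region: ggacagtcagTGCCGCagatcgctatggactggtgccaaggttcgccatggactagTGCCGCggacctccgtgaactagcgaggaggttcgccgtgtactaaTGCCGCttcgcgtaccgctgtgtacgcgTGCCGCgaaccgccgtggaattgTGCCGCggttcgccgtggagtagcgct
Snrpn promoter site: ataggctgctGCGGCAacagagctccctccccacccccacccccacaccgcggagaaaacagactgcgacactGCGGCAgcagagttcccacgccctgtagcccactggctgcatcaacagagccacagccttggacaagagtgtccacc
Mest promoter site: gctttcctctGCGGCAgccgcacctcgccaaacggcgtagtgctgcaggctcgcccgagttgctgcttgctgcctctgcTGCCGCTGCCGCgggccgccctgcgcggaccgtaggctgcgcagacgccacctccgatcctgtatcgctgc
Plagl1 promoter site: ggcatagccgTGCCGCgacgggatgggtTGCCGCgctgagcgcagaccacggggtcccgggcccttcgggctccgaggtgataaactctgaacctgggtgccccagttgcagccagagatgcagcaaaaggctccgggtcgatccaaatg

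Counted on both strands over the whole site, TGCCGC occurred 10 times in the Snrpn promoter site, 12 times in that of Mest, 8 times in that of Peg3, 6 times in that of Plagl1 and 6 times in the control region upstream of Meg3. Among merged sites within 10% of the same width, 0.0174% held as many as the Snrpn site and 0.0799% as many as the Mest site, in both cases the site itself and no other. The share was 0.015% for the Meg3 control region, 0.0319% for Plagl1 and 0.347% for Peg3. The Kcnq1ot1 and Cdkn1c promoter sites held 3 matches each, as did 12.8% and 9.27% of sites of their widths. For the YY1 core, 52.1% of sites as wide as the Peg3 site held at least 1 match, but only that site held 12. TGCCGC was present in 11.6% of all RefSeq promoters, each 250 bases before to 50 after a gene start, and in 6 of the 17 promoters listed for 8 of these genes. Of all merged sites, 4.45% held it, and 6.45% held GNGGNGGCA, the form shown for the H19 control region. For GNGGNGGCA no share among sites of like width is given here. Sites were matched by width alone and not by base composition, so the shares above do not set these sites apart from other CG-rich ones. TGCCGC and the reverse complement of GNGGNGGCA can share letters. A match gives letters in the reference, not binding.

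Most of these genes had an open promoter in the solid tissues, and fewer had one in B cells. No share of all genes is given here for each tissue by itself, and B cell sets held the fewest hotspots. The lower number in B cells is thus not read as particular to these genes. A promoter was counted as open when a hotspot lay within 1 kb of an annotated transcript start. Kcnq1ot1, Cdkn1c, Meg3 and Mest had such a hotspot in all 20 sets, which was so for 27.3% of all genes and 53.7% of protein-coding genes. At Meg3 the site in all 20 sets lay 1.97 kb inside the gene. The site at the Meg3 start itself, chr12:109540813-109541085, was in 4 lung sets and in no liver, kidney or B cell set. Plagl1 had a promoter hotspot in 19 sets, all but B6xC3H B cells. Igf2 and Peg3 had one in 17 sets, being absent from the B6xC3H, B6xPWK and B6xSPRET B cells. The 17 sets at Igf2 did not share a single site. The site at its start, chr7:142666722-142667095, was in 5 kidney and 4 lung sets and in no liver or B cell set. Liver and B cell sets counted through sites further inside the gene. When each set was cut to its 75000 top hotspots by score, Igf2 had a promoter hotspot in 9 sets (5 liver, 0 kidney, 3 lung and 1 B cell) and Peg3 in 16. Within 500 bp Peg3 had one in no B cell set. Snrpn had one in 15 sets, every liver, kidney and lung set and no B cell set, a pattern held by 1.57% of all genes. Dlk1 and H19, whose transcription is mostly fetal, were the least open, with a promoter hotspot in 6 and 5 sets. The Dlk1 promoter hotspot was found in 3 liver, 2 lung and 1 B cell sets, and that of H19 in 2 liver, 1 kidney and 2 lung sets. In mESC, DNase-seq hotspots lay at the promoters of 9 of the 10 genes, all but H19, beside 39.2% of all genes and 69.8% of protein-coding genes.

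**Figure D1:**
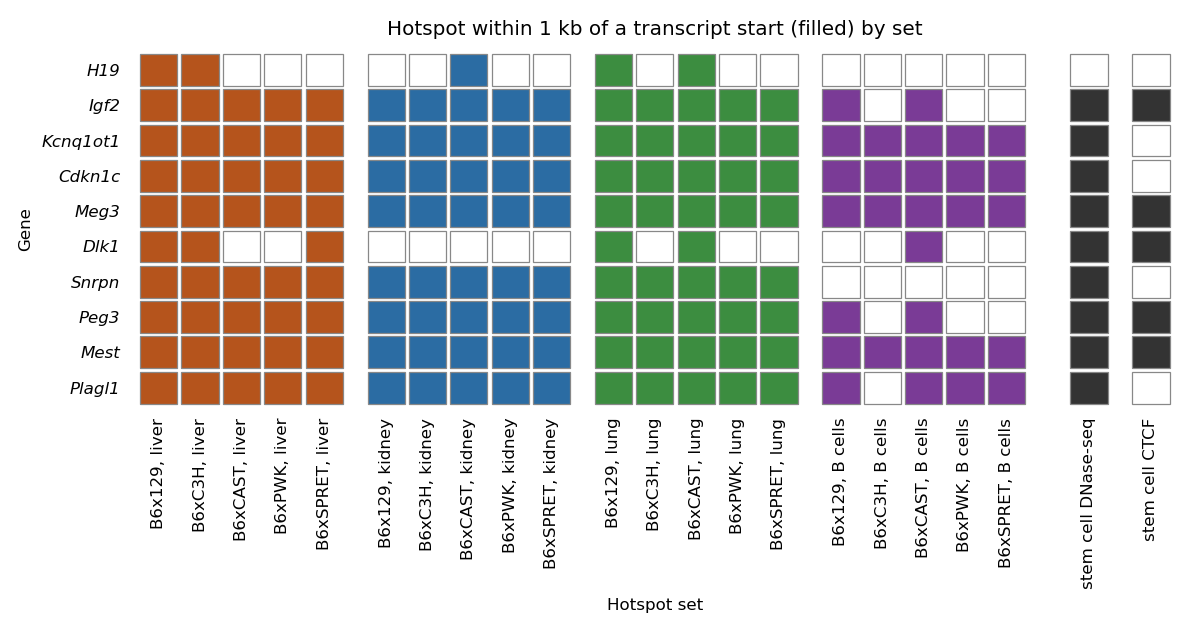
Presence of a hotspot within 1 kb of an annotated start of each gene, by tissue and hybrid for the 20 adult sets and for the 2 stem cell sets. Kcnq1ot1, Cdkn1c, Meg3 and Mest are present in all 20 adult sets, and the gaps at Igf2, Snrpn and Peg3 fall in B cells. Any annotated start of a gene counts, and Meg3 is filled through a site 1.97 kb inside the gene.

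The number of hotspots differed between the sets, and B cell sets were the smallest. Liver sets held 211762 to 295565 hotspots, kidney 186061 to 238917, lung 152006 to 281978 and B cells 78387 to 156078. The Igf2 and Peg3 promoter hotspots of B cells were found in the B6x129 set, of 117910 hotspots, and the B6xCAST set, of 156078, but not in the B6xPWK set, of 134316. The B6xCAST B cell set had more hotspots than the B6xC3H lung set, of 152006, and lacked the Snrpn promoter hotspot that the lung set held. Markers of some other cells also moved with the B cell sets. For 4 endothelial markers, promoter hotspots were found in 20 of the 20 pairs of gene and set in kidney and in lung, 19 in those of liver and 10 in those of B cells, with Tie1 and Tek in all 15 solid tissue sets and no B cell set. For 4 fibroblast markers the counts were 20 in kidney, 19 in lung, 18 in liver and 10 in B cells, with Dcn and Col1a2 in no B cell set. For 4 myeloid markers they were 13 in kidney, 18 in lung, 17 in liver and 6 in B cells. T cell markers did not follow this pattern, with 14 in kidney, 18 in lung, 14 in liver and 15 in B cells, nor did erythroid markers, with 15, 13, 14 and 16 in the same order. The part of set size and cell makeup in the B cell results was not tested. In a bulk tissue, fewer cells of a type and less open chromatin per cell cannot be told apart. The tissue labels were checked in the same way, with 4 markers for each tissue. All 4 markers had a promoter hotspot in 5 of 5 sets of their own tissue in liver, kidney, lung and B cells, but few were confined to it. Of the 20 pairs of gene and set in each other tissue, liver markers had 4 in B cells, 12 in lung and 13 in kidney. Kidney markers had 4 in liver, 9 in lung and 3 in B cells. Lung markers had 12 in liver, 3 in kidney and 1 in B cells, and B cell markers 8 in liver, 9 in kidney and 18 in lung. Of the lung markers Sftpc was found in lung alone, while Scgb1a1 and Ager were also in 5 of 5 liver sets. Of the others Apoa1 was in 5 liver and 1 lung sets, Umod in 5 kidney and 4 liver sets, Cd79a in 5 B cell, 4 lung and 2 liver sets, and Pax5 in all 20.

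The H19 control region was open in every tissue and hybrid. Its first site, chr7:142580013-142581105, 2.42 kb upstream of H19, was in all 20 sets and covered the first and second of the GNGGNGGCA matches shown above. Hotspots in it spanned 986, 966, 676, 816 and 744 bp in liver. They spanned 582, 855, 831, 748 and 693 bp in kidney, 566, 413, 723, 367 and 391 bp in lung, and 926, 550, 980, 903 and 746 bp in B cells. The ranges overlapped, with lung the lowest by median. The next site, chr7:142581623-142582175, 3.76 kb upstream, holds the third match and was in 17 sets, missing from 3 of the 5 lung sets. The lung sets that held it, B6x129 and B6xCAST, were those with the most hotspots, and the part of set size was not tested. In mESC, each of the 3 matches lay in a CTCF hotspot of its own, with −log10 FDR of 9.79, 9.98 and 15.2. They ranked 35770, 35459 and 28512 among the 97980 CTCF hotspots, and the first site had no DNase-seq hotspot in mESC.

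Further along the 72622 bp between H19 and Igf2, some sites were held by a single tissue. The kidney sets, and no other, all held chr7:142596058-142596623, 18.2 kb upstream of H19, with 302 to 530 bp covered, and chr7:142603186-142603547, both in an intron of Gm33148. A site at chr7:142610454-142611526, 32.8 kb upstream of H19, was in 19 sets, with a CTCF hotspot of −log10 FDR 22.47 in mESC. It is an exception, outside the kinds of site chosen for naming. Covered share, the bp of a window under hotspots per Mb of hotspots in the set, scales the value to the size of the set. In liver, the covered share of this space was 42.5, 55.4, 52.6, 45.8 and 43.3 bp per Mb in the 5 hybrids, and 12.7 to 37.5 in the other 15 sets. The groups did not overlap, and liver exceeded the mean of the other tissues by 21.1 bp per Mb (adjusted p = 0.00809, exact permutation test of the tissue labels within hybrids, two-sided, Benjamini-Hochberg over 53084 windows). By number of hotspots it did not pass (adjusted p = 0.125). Lung was the lowest, at 18.3 ± 6.23 bp per Mb (SD, n = 5) against 36.7 elsewhere, a difference of −18.4 (adjusted p = 0.0402 by the exact permutation test). The lung difference did not pass without scaling (adjusted p = 0.31) or by number of hotspots (0.227). Without any 1 of the 5 hybrids it no longer passed, at adjusted p of 0.087 to 0.198, and with 4 hybrids no window of the genome passed in lung.

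Igf2, the growth factor expressed from the paternal chromosome, had sites of its own. Liver alone held chr7:142661740-142662254, in an exon of Igf2 that also lies in introns of Igf2os and Gm49394, 4.82 kb into the gene, with 491, 459, 442, 485 and 467 bp covered. Its −log10 FDR reached the ceiling of 100 in 3 of the 5 livers and was 33.2 at the lowest. A second liver site, chr7:142662466-142662822, lay beside it. A pair of sites upstream of Igf2 were in all 20 sets, chr7:142672031-142672544 and chr7:142675688-142676042, at 5.47 and 9.05 kb from the start, and both overlapped mESC CTCF hotspots, of −log10 FDR 41.2 and 14.8. Covered share of the Igf2 window was lower in B cells, at 16.9 ± 3.52 bp per Mb (SD, n = 5) against 27.1 elsewhere (difference −10.2, adjusted p = 0.00958, exact permutation test). That call was lost when hotspots were counted in place of bp (adjusted p = 0.0878 by the same test) and with the 75000 highest-scoring hotspots of each set (adjusted p = 0.452).

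H19 itself stood at 27.0 ± 3.23 bp per Mb (SD, n = 5) in B cells and 18.6 elsewhere. The difference of 8.46 passed (adjusted p = 0.0449, exact permutation test), but turned to a deficit of 237 bp when covered bp were not scaled to the set. It did not pass without any 1 of the hybrids, with adjusted p from 0.0656 to 0.142, nor by number of hotspots (adjusted p = 0.641), with 50 kb on both sides (0.269) or over the gene body alone, where its sign turned (0.772).

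**Figure D2:**
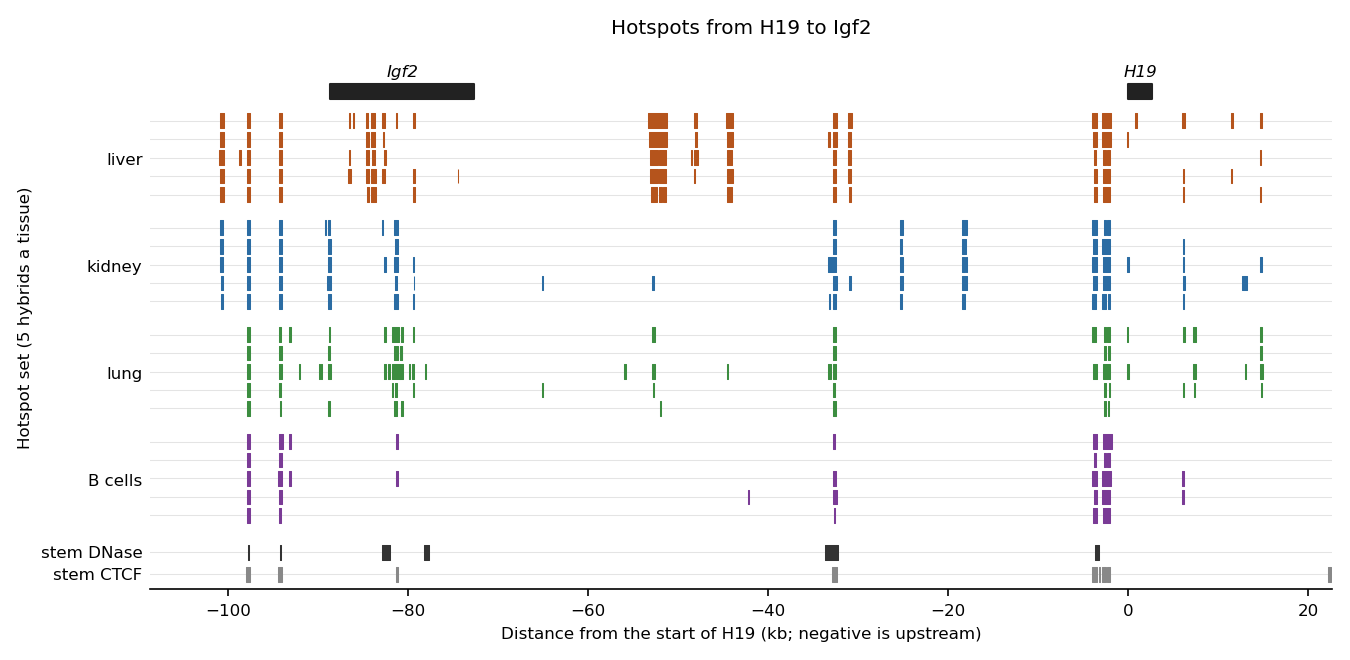
Hotspots of the 20 adult sets and the 2 stem cell sets from H19 to Igf2, plotted by distance from the H19 start in kb (negative is upstream of H19), 1 row per set. The control region sites at 2.42 and 3.76 kb upstream appear as columns across the tissues, and the kidney sites near 18.2 kb are seen in kidney rows alone.

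Kcnq1ot1, the paternally expressed RNA inside the Kcnq1 gene, was open at its promoter in every tissue and hybrid. The promoter site, chr7:143294046-143297251, spans the start of Kcnq1ot1. Hotspots spanned 1217 to 2926 bp of it in liver (median 2439), 780 to 1409 bp in kidney (1322), 669 to 2181 bp in lung (968) and 1385 to 2990 bp in B cells (2845). The B cell and liver ranges overlapped, and B cells had the highest median. Liver alone held chr7:143203244-143204470, near the 3′ end of Kcnq1ot1 and in an intron of Kcnq1, with 1225, 966, 720, 1017 and 964 bp covered and −log10 FDR at the ceiling of 100 in all 5. The covered share of the window was 99.7, 118.5, 127, 112 and 132 bp per Mb in liver, a mean of 117.9 ± 12.9 (SD, n = 5) against 60.2 elsewhere. The difference of 57.7 passed (adjusted p = 0.0133, exact permutation test), although 1 lung set, B6xCAST at 134 bp per Mb, was higher than every liver.

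Cdkn1c, the maternally expressed inhibitor of cyclin-dependent kinases that Kcnq1ot1 silences on the paternal chromosome, had the most sites shared by all sets. Of its 17 sites, 5 were in all 20 sets: the promoter, chr7:143458970-143461654, and 4 sites upstream at chr7:143463418-143464265, chr7:143466107-143466740, chr7:143469959-143470333 and chr7:143480458-143480889. Over the genome, 3.77% of sites were in all 20. Merging only overlaps of 100 bp or more gave 3 of 29 at Cdkn1c. The 75000 top hotspots per set gave 1 of 11, the same number as at Igf2, Kcnq1ot1, Dlk1 and Plagl1. Each of the 4 upstream sites overlapped a CTCF hotspot in mESC, with −log10 FDR of 24.04, 21.9, 30.7 and 30.2, and the promoter did not. Liver alone held a pair of sites downstream of the gene, chr7:143455634-143455953 and chr7:143456365-143456705, and kidney alone held chr7:143446234-143446520. Covered share was lower in B cells, at 44.5 ± 6.21 bp per Mb (SD, n = 5) against 63.9 elsewhere (difference −19.4, adjusted p = 0.0121, exact permutation test). It did not pass without B6xCAST (adjusted p = 0.0727), by number of hotspots (adjusted p = 0.544) or over the gene body alone (adjusted p = 0.389).

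At Dlk1 and Meg3, liver had the highest covered share over Meg3 and the space before it, and B cells over Dlk1. The control region of the cluster lies between Dlk1, a paternally expressed membrane protein, and Meg3, a maternally expressed noncoding RNA. Its site with the TGCCGC repeats shown above, chr12:109527404-109528504, lay 13 kb upstream of Meg3 between genes. In liver 1073, 1089, 923, 934 and 896 bp of it were covered with −log10 FDR of 27.7 to 68.5. In kidney the hotspots were present in all 5 sets but narrow, at 234, 241, 243, 203 and 249 bp with −log10 FDR of 4.27 to 8.70, and lung had 234 bp in B6x129, 200 bp in B6xCAST and none in the others. No B cell set and neither mESC set had a hotspot there, and liver covered more of this site than any set of another tissue. Another site of the same stretch went the other way: chr12:109525645-109525941 was held by the B6xCAST, B6xPWK and B6xSPRET B cells, with 297, 123 and 117 bp covered, and by no liver, kidney or lung set, and it overlapped an mESC DNase-seq hotspot of −log10 FDR 1.80.

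Sites on both sides of it were found in liver alone. One at chr12:109521250-109522309, 19.2 kb upstream of Meg3, had 696, 966, 578, 621 and 752 bp covered and −log10 FDR at the ceiling of 100 in all 5 livers. One at chr12:109532812-109533976, 7.61 kb upstream of Meg3 in an exon of Gm27528, had 1165, 1029, 864, 879 and 849 bp covered. Covered share of the space between the genes was 54.1, 65.9, 69.7, 65.7 and 64.2 bp per Mb in liver and 3.05 to 29.4 in the other 15 sets, a difference of 48.3 between liver and the mean of the others (adjusted p = 0.00809, exact permutation test). For the Meg3 window, which shares part of that space, liver had 45.4, 58.5, 52.3, 46.6 and 52.9 bp per Mb and the other sets 6.58 to 19.5, a difference of 38.9 (adjusted p = 0.00809, exact permutation test). In neither region did liver overlap the other tissues. Just inside Meg3, chr12:109542689-109543254, in an exon 1.97 kb from the start, was in all 20 sets and overlapped a CTCF hotspot of −log10 FDR 19.4.

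The Dlk1 window had 56.6, 61.4, 44.1, 59.8 and 52.7 bp per Mb in B cells and 10.3 to 25.3 in the other 15 sets, without overlap, and the difference was 38.3 (adjusted p = 0.00404, exact permutation test). Within the gene body alone the difference was −0.195 bp per Mb. The sites held by all B cell sets and no other lay between genes downstream of Dlk1, at chr12:109465437-109465954 and chr12:109466805-109467331, 12.9 and 14.2 kb from the start of Dlk1. In B cells, the first had 379, 206, 433, 498 and 259 bp covered and the second 411, 277, 432, 527 and 257 bp. The Dlk1 site with the strongest CTCF hotspot, of −log10 FDR 76.3, was chr12:109437587-109438383, 14.8 kb upstream, and was in all 20 sets.

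**Figure D3:**
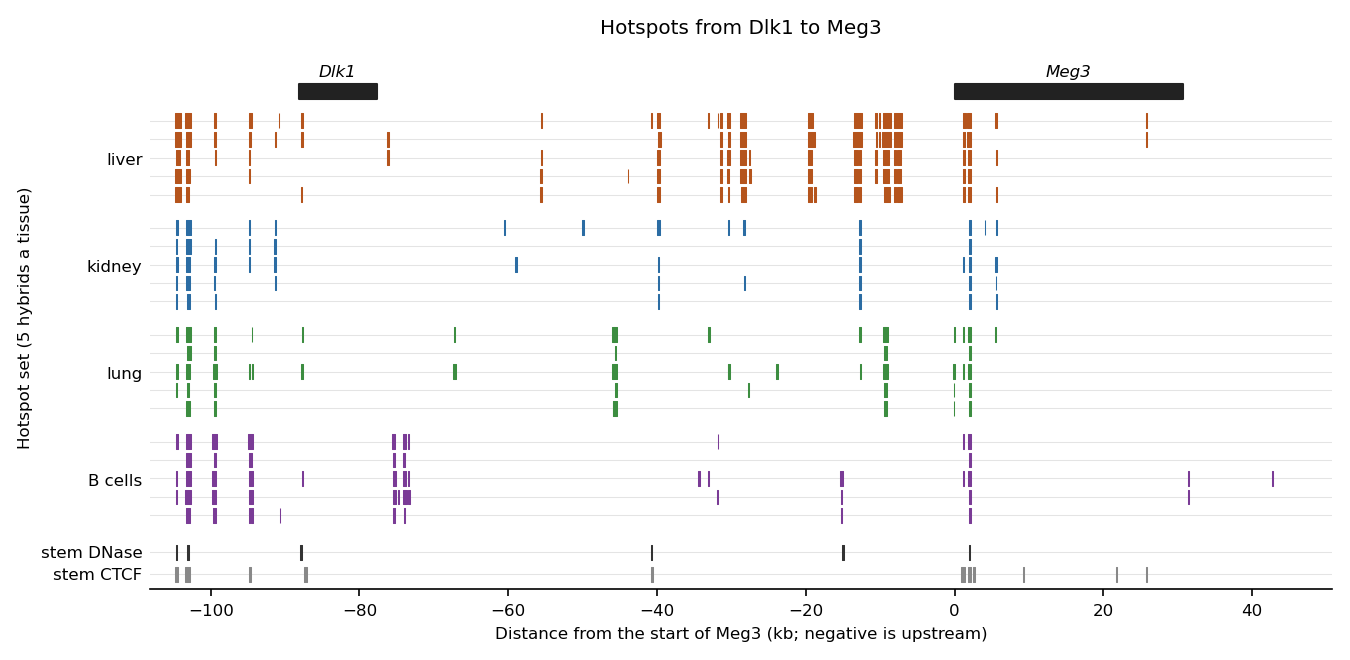
Hotspots of the 20 adult sets and the 2 stem cell sets from Dlk1 to Meg3, plotted by distance from the Meg3 start in kb (negative is upstream of Meg3), 1 row per set. Liver rows are densest over the 20 kb before Meg3, and the B cell sites lie 73.9 and 75.3 kb upstream of it, just past Dlk1.

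Peg3 and Snrpn, both with paternally expressed promoters, had a promoter hotspot in all 15 solid tissue sets, while B cells had it in 2 sets at Peg3 and in none at Snrpn. The Peg3 promoter site, chr7:6726780-6731332, spans the shared start of Peg3 and Usp29. It had 4481, 4314, 3777, 3793 and 3631 bp covered in liver, 3491, 3559, 3965, 3392 and 3923 bp in kidney and 3672, 3115, 3552, 3097 and 3372 bp in lung. In B cells it had 426 bp in B6x129, 578 bp in B6xCAST and 0 in the other 3. Every solid tissue set was thus above every B cell set. In mESC the same site was covered over 4051 bp, and its strongest CTCF hotspot, of −log10 FDR 94.8, had rank 407 among 97980. That hotspot, chr7:6727042-6728261, takes in the YY1 core matches farthest from the start. Covered share of the Peg3 window was 3.75 ± 5.13 bp per Mb (SD, n = 5) in B cells against 61.3 elsewhere, a difference of −57.5 (adjusted p = 0.00404, exact permutation test), with 0 to 9.62 in B cells and 49.8 to 82.2 in the others. Because the window holds the start of Usp29, the hotspots cannot be assigned to either gene.

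The Snrpn promoter site, chr7:60003445-60005511, is the start shared by Snrpn and Snurf. It had 2004, 1845, 1647, 1890 and 1648 bp covered in liver and 1758, 1772, 1819, 1934 and 1036 bp in kidney. In lung it had 1336, 219, 1690, 285 and 220 bp, and no B cell set had a hotspot there. Lung thus fell into wide and narrow hotspots, and the wide ones belonged to the 2 lung sets with the most hotspots. The part of set size in this split was not tested. Covered share of the Snrpn window was 2.36 ± 2.52 bp per Mb (SD, n = 5) in B cells against 27.9 elsewhere (difference −25.5, adjusted p = 0.00404, exact permutation test), with ranges of 0 to 5.93 and 6.04 to 45.0 bp per Mb. Of the 45 sites of the locus, 31 were in 1 set only and none in all 20.

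Mest, a paternally expressed hydrolase-like protein, had its highest covered share in B cells. Its promoter site, chr6:30735028-30739059, was in all 20 sets, with 3412, 1134, 3999, 2930 and 1180 bp covered in B cells. Liver had 2655, 686, 693, 423 and 279 bp, kidney 930, 2064, 1582, 935 and 915 bp, and lung 2035, 525, 2262, 580 and 823 bp, so that the ranges overlapped. Although wide, the B cell hotspots had a −log10 FDR of only 3.27 to 26.5. Covered share of the window was 71.0, 54.4, 69.3, 62.6 and 38.6 bp per Mb in B cells, a mean of 59.2 ± 13.2 (SD, n = 5) against 24.47 elsewhere (difference 34.7, adjusted p = 0.00404, exact permutation test). The call was lost without scaling to the size of the set (adjusted p = 0.174, same test). In mESC the Mest window held 24 DNase-seq hotspots over 9906 bp, a number reached by 1.16% of genes, and 21 of the 24 overlapped no adult hotspot.

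Plagl1, a paternally expressed zinc finger regulator of growth, was lowest in liver. Its promoter site, chr10:13090384-13091539, spanned 357 to 834 bp in liver, 481 to 992 in kidney, 474 to 1105 in lung and 0 to 980 in B cells. The kidney sets alone held chr10:13073052-13074789, an intron site 13.4 kb into the gene, with 1217, 1736, 1587, 1590 and 1647 bp covered. Covered share of the window was 21.5, 11.97, 10.6, 13.4 and 13.6 bp per Mb in liver, below all other sets, which lay between 29.2 and 77.0 (difference −36.4, adjusted p = 0.00809, exact permutation test). Without scaling to the set it did not pass (adjusted p = 0.0658, same test). Kidney had the highest mean, 63.9 ± 10.8 bp per Mb (SD, n = 5) against 34.1 elsewhere, which did not pass (adjusted p = 0.0648).

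The calls over the loci were read against those over the whole genome, without a test, since the windows of Dlk1, Meg3, H19 and Igf2 share hotspots with the spaces between them. In liver, 4 of the 12 regions were higher and 1 lower, where 14.6% of all windows were higher and 7.80% lower. In B cells, 3 regions were higher and 4 lower, beside 28.0% and 16.3% of all windows, so that the 3 higher regions are no more than the background share. In lung 0 were higher by the exact permutation test (limma called 2, beside 21.1% of all windows) and 1 was lower, beside 7.74% and 2.68%. In kidney none was called, beside 9.63% higher and 2.42% lower. In kidney 3 of the 12 regions had an unadjusted p under 0.05 by the exact permutation test, as had 24.8% of all windows, and limma called 3 higher and 4 lower, beside 24.48% and 21.4% of all windows. The median difference over the 12 regions was 12.6 bp per Mb in liver and −9.78 in B cells, against −1.03 and −0.166 over all windows. All 13 calls had the same direction in 5 of 5 hybrids. The direction of calls over the genome moved with the scaling: 63.1% of the B cell calls were higher as scaled here and 19.6% without scaling, and for liver 65.2% and 95.4%.

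**Figure D4:**
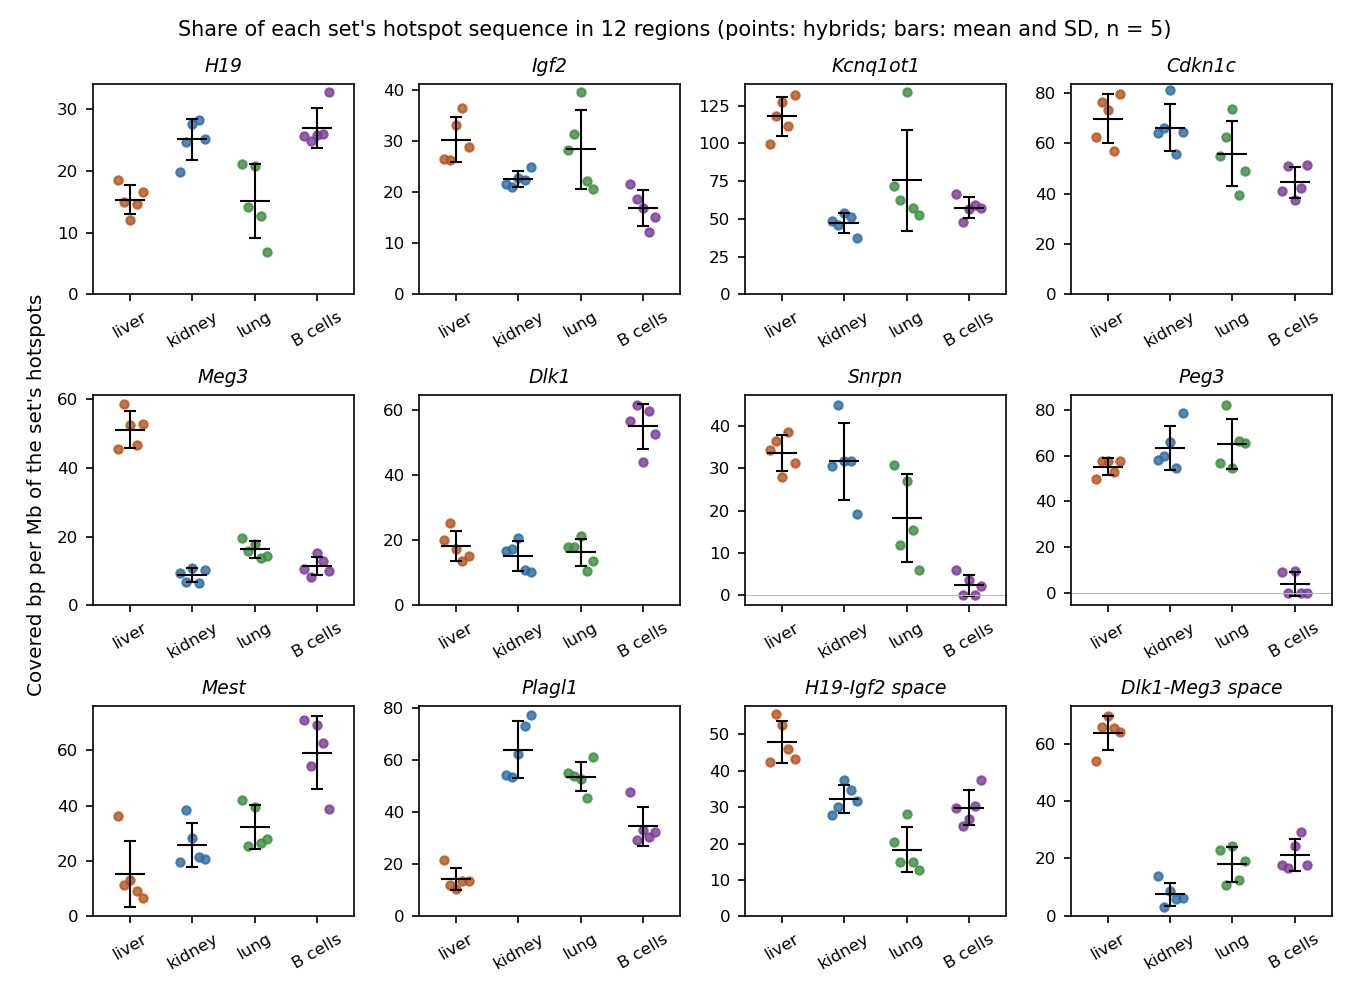
Covered share of each of the 12 regions in bp per Mb of hotspots, by tissue, with 1 point per hybrid and the mean and SD of the 5 hybrids. Liver stands apart at Meg3 and the space before it, B cells stand high at Dlk1, and B cells lie between 0 and 9.62 at Peg3.

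No region passed the test between hybrids. Across the 5 hybrids and 12 regions, 0 comparisons passed, as did 0% of the 53084 windows in any hybrid by the exact permutation test within tissues. The smallest p this test can give is 0.0016, and 2364 to 6114 windows had an unadjusted p under 0.05. Between 88 (B6x129) and 377 (B6xSPRET) windows reached that smallest p, too few of the 53084 for even these to pass after adjustment. The absence of calls therefore does not show that the hybrids are alike. limma called 0 of these regions as well, with 128 higher and 35 lower windows of the genome in B6xSPRET and fewer in the other hybrids. Unadjusted, 4 comparisons of these regions had p under 0.05. Cdkn1c in B6xPWK was lower by 13.2 bp per Mb (unadjusted p = 0.0144, adjusted p = 0.771, exact permutation test), in 4 of 4 tissues. Snrpn and Mest in B6xSPRET were lower by 8.46 and 12.1 in 4 of 4 tissues (adjusted p = 0.497 and 0.514, exact permutation test). Kcnq1ot1 in B6xCAST was higher by 23 in 3 of 4 tissues (adjusted p = 0.691, exact permutation test). No site of the loci was held by the 4 tissues of 1 hybrid alone, a pattern that at most 0.0334% of all sites had for any hybrid. Each set is a pool of its own libraries, so hybrids differ in depth as well, and the part of depth was not tested.

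With the sets as deposited, sites of these loci were shared between sets about as often as sites elsewhere. Of the 274, 13 (4.74%) were in all 20 sets and 122 (44.5%) in 1 set, beside 3.77% and 42.2% of all sites. Liver alone held 10 sites in 5 of 5 sets (3.65%, beside 3.03% of all sites), kidney 4 (1.46%, beside 1.99%), lung 3 (1.09%, beside 1.47%) and B cells 2 (0.730%, beside 0.334%). The 3 in lung were chr7:143188502-143189080 in an intron of Kcnq1, chr12:109494943-109495608 between Dlk1 and Meg3, and chr6:30716713-30717380, 6.50 kb upstream of Mest. In all 15 solid tissue sets and no B cell set were 5 sites (1.82%, beside 1.14%). Besides the Snrpn promoter these were chr7:143289330-143289898 and chr7:143313363-143315269 at Kcnq1ot1, chr7:143473384-143476432 in an exon of Slc22a18 upstream of Cdkn1c, and chr7:6696004-6696931 in an exon of Zim1 downstream of Peg3, named after their values were seen. With the 75000 top hotspots of each set, several shares moved apart. Liver alone then held 10 of 81 sites (12.35%, beside 5.26% of all sites), and the 15 solid tissue sets alone held 3 (3.70%, beside 0.918%). In 1 set were 14 (17.3%, beside 24.2%), and in all 20 sets 5 (6.17%, beside 6.95%).

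Sites open in all tissues were mostly CTCF sites of the stem cells. Of the 13 sites in all 20 sets, 11 overlapped a CTCF hotspot and 12 a DNase-seq hotspot of mESC, beside 67.2% and 89.0% of such sites over the genome. The 2 without CTCF were the Kcnq1ot1 and Cdkn1c promoters. Read from the stem cells, 31 of the 43 CTCF hotspots of the loci (72.1%, 95% Wilson interval 57.3 to 83.3%) overlapped a hotspot of 1 adult set or more, beside 61.1% over the genome, and 12 (27.9%, 16.8 to 42.7%) overlapped hotspots of all 20, beside 19.3%. For mESC DNase-seq hotspots, 40 of 67 (59.7%, 47.7 to 70.6%) were in 1 adult set or more, beside 69.5%, and 12 (17.9%, 10.6 to 28.8%) in all 20, beside 24.1%. Each interval held the share over the genome, and the Mest window alone had 21 of the DNase-seq hotspots that no adult set held.

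RNA-seq counts for these genes were low and are described without a test. Estimated counts per library totalled 283725 to 809337 over genes. These totals are far below the uniquely mapped reads that the paper lists for each library, and the reason was not tested. A low count is therefore not read as shallow sequencing or low expression. Kcnq1ot1 was highest, with 1078 to 2294 counts in lung, 205 to 650 in kidney, 10 to 60 in liver and 9 to 73 in B cells. The Kcnq1 gene that it overlaps on the opposite strand had 0 to 3. Mest had 63 to 104 counts in lung, 63 to 92 in kidney, 27 to 65 in liver and 17 to 121 in B cells, and Plagl1 15 to 68 in lung, 3 to 6 in kidney, 0 to 1 in liver and 0 in B cells. H19, Igf2, Snrpn, Dlk1 and Meg3 had 0 to 3 in every library. Alb, the albumin gene, had 95 to 767 counts in liver, and the strand setting of the counting is not given in the sources used here. The kit used marks strand. Whether the counting used the matching strand could not be told, so the counts printed for Kcnq1ot1 may be reads of Kcnq1, and none of these counts was read as a transcript level.

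Beyond the 10, a list of 45 other imprinted genes was read the same way. In liver 11 were higher (24.44%, beside 14.6% of all windows) and 2 lower (4.44%, beside 7.80%), with a median difference of 3.79 bp per Mb against −1.03 over all windows. In B cells 10 were higher (22.2%, beside 28.0%) and 18 lower (40%, beside 16.3%), with a median of −5.81 against −0.166. Kidney had 4 higher (8.89%, beside 9.63%) and 3 lower (6.67%, beside 2.42%), and lung had 3 higher (6.67%, beside 7.74%) and 0 lower (beside 2.68%). The largest differences upwards in liver were at Slc38a4, an amino acid transporter, with 325.3 bp per Mb in liver and 37.1 elsewhere, and at Grb10, an adaptor of insulin signalling, with a difference of 80.8. Trappc9 was lower in liver, at 147.1 against 292 bp per Mb. In B cells Gnas and Commd1 were higher by 100.2 and 89.3, and Kcnq1, the potassium channel gene around Kcnq1ot1, was lower, at 97.3 against 250.1 bp per Mb. Of the 45 promoters, 19 were open in all 20 sets, beside 27.3% of all genes and 53.7% of protein-coding genes. In no B cell set were 14 open. No share of all genes is given for that count, so it is not read as particular to the list. The windows of 10 of the 45, Copg2, Ins2, Kcnq1, Rian, Rtl1, Slc22a18, Snhg14, Snurf, Usp29 and Zim1, overlap those described above, so the lists are not separate there.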

How the data were processed

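The authors trimmed the DNase-seq and ChIP-seq reads with Trimmomatic, aligned them to mm10 with BWA, removed duplicates and low-quality alignments and ran hotspot2 (FDR 5%) on all libraries of each strain and tissue together. The deposited files list hotspot positions and, for each, a −log10 FDR that ends at 100. RNA-seq was aligned with STAR, and the deposited RSEM tables hold expected counts and TPM; the counting options are not given in the sources used here. The TPM values the authors deposited were not used.

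Hotspots were intersected with GENCODE vM21 windows in Python 3.11.15 (numpy 2.4.6, pandas 2.3.3, statsmodels 0.14.6, matplotlib 3.10.9). Adult hotspots that overlapped by 1 bp were merged into sites. Covered bp were divided by the set's total Mb of hotspots, so a set with more hotspots elsewhere gives a smaller share. Each tissue was compared with the mean of the other tissues by exchanging tissue labels within hybrids (1024 exchanges, smallest p 0.000977), and each hybrid with the others within tissues (625 exchanges), exactly and two-sided. P-values were adjusted by Benjamini-Hochberg over 53084 windows with a hotspot in at least 1 set, with a threshold of 0.05. limma 3.58.1 in R 4.3.3, on log2(bp per Mb + 1), was an alternative. The tests were checked on simulated data. Sites named are promoter sites, control region sites, sites in all 20 sets and sites of all hybrids of 1 tissue, with exceptions marked. Wilson intervals cover counting error only. Read depth behind a single hotspot is not given in the files. The paper lists the reads analysed for each pooled set, but these were not used here. RNA samples were grouped by tissue only, because the strain labels of 1 conflicted. The genes and lists were chosen with earlier results of these data known.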

Additional observations from a re-analysis of the deposited data

Results flagged for a closer look

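Of 48 groups of 5 hybrids (12 regions in 4 tissues), 5 held a highest value far from the other 4 by Dixon's ratio at the 95% level (chance gives about 1 in 20). H19 in B cells was 32.8 bp per Mb in B6xSPRET and 24.8 to 26 in the others, with a ratio of 0.855. Kcnq1ot1 in lung was 134 bp per Mb in B6xCAST, with 38 hotspots over 13021 bp, and 53 to 71.8 in the others (ratio 0.768); this was the lung set with the most hotspots, 281978. The remaining 3 were all B6x129. Mest in liver was 36.2 bp per Mb there and 6.6 to 13.3 in the others (ratio 0.775), Plagl1 in liver 21.5 and 10.6 to 13.6 (ratio 0.726), and Plagl1 in B cells 47.5 and 29.2 to 33.2 (ratio 0.782). The B6x129 liver set was the largest of all, at 295565 hotspots. The part of set size in these values was not tested.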

How the results depend on the processing

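Of 346 alternative values, 283 kept their direction and side of the threshold or moved by less than the limit set; for the 13 called regions it was 157 of 182. Covered bp without scaling to the set called 7 regions higher and 0 lower in liver (4 and 1 as reported), 1 higher in kidney (0), 0 lower in lung (1) and 1 higher in B cells (3), and turned H19 in B cells to −237 bp. Of all windows, that setting called 31.9% higher and 1.53% lower in liver. It called 9.01% higher in kidney, 0.347% lower in lung and 5.41% higher in B cells. Counting hotspots per 100000 of the set left 0 lower in lung (1.73% of all windows). limma called 8 higher and 3 lower in liver (24.64% and 28.3% of all windows), 3 and 4 in kidney (24.48% and 21.4%), and 2 and 3 in lung (21.1% and 20.4%). Without the hybrid block 2 were lower in liver (10.8% of all windows) and 1 higher in kidney (11.05%). With 50 kb on both sides 1 was higher and 1 lower in kidney (9.67% and 3.05% of all windows) and 2 lower in lung (3.29%). The gene body alone gave 1 higher in lung (6.81% of all windows) and 1 in B cells (25.5%), and H19 and Dlk1 in B cells turned to −0.154 and −0.195 bp per Mb. The 75000 highest-scoring hotspots per set gave 1 higher in kidney (9.64% of all windows). Leaving out each hybrid gave 0 to 0 regions lower in lung, 2 to 2 higher and 3 to 4 lower in B cells, and 4 to 4 higher and 1 to 1 lower in liver. Of all windows, 24.2% to 25.6% were then higher and 10.5% to 11.4% lower in B cells. In liver 11.6% to 12.05% were higher and 4.29% to 4.75% lower. With 256 exchanges left, 0 windows of the genome passed in lung. Unscaled, Plagl1 in liver did not pass (adjusted p = 0.0658), nor did the space from H19 to Igf2 in liver by hotspot number (adjusted p = 0.125), by the exact permutation test. Promoters open in all 20 sets numbered 2 within 500 bp and 2 with the top hotspots (4 as reported), and with the latter 4 were open in the 15 solid tissue sets (8). Top hotspots gave 81 sites in all (274), 5 in all 20 sets (13), 14 in 1 set (122), 10 of liver alone (10), 2 of kidney alone (4), 4 of B cells alone (2) and 3 in the 15 solid tissue sets alone (5). Of all sites at that setting, 6.95% were in all 20 sets and 24.2% in 1 set. Liver alone held 5.26%, kidney alone 2.995%, B cells alone 4.17% and the 15 solid tissue sets alone 0.918%. Merging only overlaps of 100 bp or more gave 431 sites, 263 in 1 set (61.0%, beside 61.0% of all sites) and 2 in the 15 solid tissue sets alone (0.464%, beside 0.582%). An FDR of 1% gave 78 in 1 set (36.3%, beside 33.1%). No paired analysis was possible because the replicate numbers mark libraries that the authors pooled; the hybrid block stood in the main test. The cause of these changes was not tested.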
